A study of Mus musculus with 4 samples.

Results

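Acute phase proteins are secreted proteins whose level climbs in inflammation, and neutrophil alarmins are proteins stored by neutrophils that warn other cells of damage. The genes described here are the 10 listed genes Serpina3n, Lcn2, Saa3, Hp, Cp, Orm1, S100a8, S100a9, Retnlg and Ptx3, of 20882 genes that the array could name. They were measured in adult cardiomyocytes (heart muscle cells) taken from male mice aged 10 weeks. The mice came from a cross of αMHC promoter-driven CRE mice with tetO-Yamanaka's OSKM factor mice, OSKM standing for the reprogramming factors Oct4 (Pou5f1), Sox2, Klf4 and Myc. Genes under tetO respond to doxycycline through a tetracycline transactivator, and the labels name none, so they do not settle in which cells, or whether, doxycycline induced the factors. Doxycycline was injected into the peritoneum for 2 days in the treated group, with arrays doxycycline 1 and 2. Control mice of the same cross received PBS for 2 days, with arrays control 1 and 2. Both groups thus carry the CRE and factor transgenes, and no group received doxycycline without them, so effects of the drug and of the factors cannot be told apart. The labels do not say how many animals stand behind an array, so the spread between arrays may be technical.

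The genes were chosen with the differences between these arrays known, both doxycycline against control and doxycycline array 1 against doxycycline array 2. Their values in those contrasts are therefore given as a description, with no test. Levels are on a log2 scale, relative to the 75th percentile of the array's processed signals, which is set to 0. Differences are doxycycline minus control. A spot is called well above background by the scanner software's own flag.

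The classical acute phase response is a programme of the liver. Interleukin-6, acting through its receptor and the transcription factor STAT3, and interleukin-1 and tumour necrosis factor, acting through NF-κB, raise transcription of these genes together with the factors C/EBPβ and C/EBPδ, and glucocorticoids add to the effect. Several of the genes are also transcribed outside the liver by endothelial cells, fibroblasts, fat cells and macrophages, and S100a8, S100a9 and Retnlg are abundant in neutrophils. In the heart, Lcn2, Serpina3n and S100a8 with S100a9 are known from studies of injury and infarction.

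All 10 genes were on the array, with 11 probes of 1 spot each, and 8 genes passed the filter, being well above background on 2 or more arrays. Orm1 and Ptx3 were not. Marker genes of heart muscle were bright on all arrays. Myh6, the main myosin heavy chain of the adult mouse heart, read 9.17 and 9.81 on the doxycycline arrays and 10.28 and 9.73 on the control arrays. The hepatocyte genes Alb and Apoa1 were never well above background, and neither were 4 more of the 10 hepatocyte markers listed. The 4 others were tested. Ahsg and Apoa2 were well above background on all 4 arrays, Cyp2e1 on all but control array 2, and Ttr on the doxycycline arrays alone. Ahsg read 0.57 and 1.95 on the doxycycline arrays and 0.79 and -0.37 on the control arrays. Apoa2 read 1.49 and 2.02 with doxycycline and 2.16 and 2.03 in control.

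The array was not alike in quality on every sample. On control array 1, repeated spots varied by a median of 10.99%, against 4.02% to 4.81% on the other 3 arrays, and the scanner software placed control array 1 alone outside its accepted range for this measure. Control array 1 also read higher than control array 2 in 12 of 12 fibroblast, 11 of 12 endothelial and 10 of 10 macrophage and monocyte markers tested. The same order held in 11 of 11 neutrophil markers, 6 of 6 neutrophil chemoattractants and 3 of 3 red cell markers tested. Control array 1 read higher in 2 of 12 heart muscle and 1 of 7 mesothelial and epithelial markers, and in 5847 of all 12538 genes tested. Several differences are therefore also given without control array 1. The range over all arrays left out is given for 4 of the genes at the end. The 4 arrays lay on 1 slide, scanned on 1 day, with the control arrays side by side and the doxycycline arrays side by side, so position and treatment cannot be told apart. Of 12538 genes tested with limma, 0.0% were called higher and 0.0% lower at an adjusted p under 0.05, whereas 398 lay higher and 488 lower at an unadjusted p under 0.05. In RNA from a whole preparation, a change in the number of cells of a type and a change in RNA per cell cannot be told apart.

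The stretches before the transcription start are shown for 4 genes that stand for the 2 patterns seen across the arrays. Serpina3n and Lcn2 were bright on both doxycycline arrays, whereas Saa3 and Ptx3 were bright on doxycycline array 1 and dim or below background on doxycycline array 2. Each run is the 250 bases before the start in the RefSeq annotation of GRCm38.p6, 5′ to 3′ on the strand of the gene. Capitals mark matches to TTNNGNAA, a core of sites bound by C/EBP factors, and to a form of the NF-κB site made of GGG, any 2 bases and TTTCC, on either strand.
Serpina3n (chr12:104406458-104406707, plus strand): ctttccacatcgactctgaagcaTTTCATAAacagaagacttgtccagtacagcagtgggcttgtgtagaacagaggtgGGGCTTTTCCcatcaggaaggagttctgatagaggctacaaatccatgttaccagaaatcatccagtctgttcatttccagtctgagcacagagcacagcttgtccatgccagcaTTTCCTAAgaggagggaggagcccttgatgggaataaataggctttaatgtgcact
Lcn2 (chr2:32387740-32387989, minus strand): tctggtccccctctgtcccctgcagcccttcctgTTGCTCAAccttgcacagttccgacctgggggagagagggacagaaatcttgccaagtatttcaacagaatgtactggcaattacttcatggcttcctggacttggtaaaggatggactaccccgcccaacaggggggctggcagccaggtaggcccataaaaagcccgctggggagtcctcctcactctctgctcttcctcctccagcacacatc
Saa3 (chr7:46715677-46715926, minus strand): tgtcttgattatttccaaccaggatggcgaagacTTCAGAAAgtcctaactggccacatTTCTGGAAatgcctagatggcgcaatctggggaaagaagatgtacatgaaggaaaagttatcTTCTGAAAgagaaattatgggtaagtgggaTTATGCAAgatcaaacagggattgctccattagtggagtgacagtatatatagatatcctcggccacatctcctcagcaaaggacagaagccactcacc
Ptx3 (chr3:66219637-66219886, plus strand): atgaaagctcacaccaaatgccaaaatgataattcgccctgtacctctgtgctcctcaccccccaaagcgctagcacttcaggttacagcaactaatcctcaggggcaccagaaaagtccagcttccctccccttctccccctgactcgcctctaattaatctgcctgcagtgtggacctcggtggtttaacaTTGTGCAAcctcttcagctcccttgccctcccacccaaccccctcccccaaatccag

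Saa3 held 4 matches to TTNNGNAA, the nearest of which begins 99 bases before the start with the letters TTATGCAA. Serpina3n held 2 of these and also GGGCTTTTCC, which begins 171 bases before the start. Lcn2 and Ptx3 held 1 each, TTGCTCAA and TTGTGCAA. Promoters were given for 8 of the 10 genes, with 9 start sites because Cp has 2, and TTNNGNAA was found in 9 of the 9. It was found in 36.8% of all 32851 promoters cut to the same length. The NF-κB form with TTTCC was found in Serpina3n alone of these genes and in 1.41% of all promoters, and the NF-κB consensus in 0 of the 9 and in 7.25% of all promoters. The letters TTCNNNGAA, a full STAT site, were found in none of the 9 windows and in 7.02% of all promoters. Both strands were searched for these 4 motifs. TATAAA, the TATA box, was searched on the strand of the gene and found in 2 of the 9, in Cp and S100a8, and in 7.59% of all promoters. No different motifs overlapped in the runs shown. The motifs were chosen after the array values were seen, and both NF-κB forms are given because the match in Serpina3n depends on the form. These matches describe letters and do not show that a factor binds.

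Serpina3n encodes a secreted inhibitor of serine proteases. Its processed signal was 13955 and 2788 on doxycycline arrays 1 and 2, against 85.6 and 127 on control arrays 1 and 2. As levels these were 5.81 and 3.86, against -0.39 and -0.43. Both doxycycline arrays were far brighter than both control arrays, and the control arrays lay close together. The mean was 4.83 ± 1.38 on doxycycline arrays and -0.41 ± 0.03 on control arrays (SD, n = 2 each), a difference of 5.25, or 37.9-fold. Against the control mean, doxycycline array 1 was 74.8-fold higher and doxycycline array 2 was 19.2-fold higher.

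Lcn2 encodes lipocalin 2, which binds bacterial iron carriers. It had processed signals of 10301 and 1294 on the doxycycline arrays, against 94.2 and 84.9 on the control arrays. Levels were 5.38 and 2.75 with doxycycline and -0.25 and -1.01 in control. The groups did not overlap, and doxycycline array 1 was 6.18-fold brighter than doxycycline array 2. The difference between groups was 4.69, a 25.9-fold difference, with means of 4.06 ± 1.86 and -0.63 ± 0.53 (SD, n = 2 each, doxycycline first). It was 5.07 without control array 1 and 3.38 without doxycycline array 1.

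Hp encodes haptoglobin, which captures free haemoglobin. Its processed signal was 522 and 152 on the doxycycline arrays and 29.0 and 31.7 on the control arrays. Levels were 1.07 and -0.35 with doxycycline and -1.95 and -2.43 in control, an order of the arrays like that of Lcn2. The difference in level was 2.55 (1.52 with normexp background correction), or 5.87-fold, with 9.59-fold on doxycycline array 1 and 3.59-fold on doxycycline array 2 against the control mean.

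Cp encodes ceruloplasmin, a copper enzyme that oxidises iron for export, and was the gene with 2 probes. The brighter probe had signals of 2481 and 1235 on the doxycycline arrays, against 329 and 407 on the control arrays. Its levels were 3.32 and 2.68 with doxycycline and 1.55 and 1.25 in control, a difference of 1.60 (3.03-fold). The dimmer probe, designed to another transcript of the gene, had signals of 108.4 and 107.7 on the doxycycline arrays and 24.0 and 49.4 on the control arrays. Both probes had both doxycycline arrays above both control arrays. The dimmer probe differed by 0.99 between the groups and was not higher on doxycycline array 1 than on doxycycline array 2, at levels of -1.20 and -0.84.

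S100a8 and S100a9 lie next to each other on chromosome 3 and encode the subunits of calprotectin, a calcium and zinc binding alarmin. S100a8 had signals of 755 and 178 on the doxycycline arrays, against 24.6 and 13.6 on the control arrays. S100a9 had signals of 3129 and 813 on the doxycycline arrays and 126 and 88.8 on the control arrays. Both genes had the same order over the 4 arrays, doxycycline 1, doxycycline 2, control 1 and control 2. S100a8 differed by 3.67 (12.7-fold), or 2.01 with normexp background correction, and S100a9 by 3.26 (9.55-fold). The difference between the doxycycline arrays was 1.72 for S100a8 and 1.58 for S100a9, and between the control arrays 1.46 and 1.11. Without control array 1 the group differences were 4.39 and 3.81, and without doxycycline array 1 they were 2.81 and 2.47.

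Retnlg encodes a resistin-like protein of myeloid cells and has Retnla next to it in the genome. Its signal was 153 and 53.8 on the doxycycline arrays, against 12.98 and 10.06 on the control arrays, and the dimmest of these, control array 2, was not well above background. The order of the arrays was that of S100a8. Its levels were -0.70 and -1.84 with doxycycline and -3.11 and -4.09 in control, a measured difference of 2.33 (5.03-fold). It was 0.78 with normexp background correction.

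Saa3 encodes a serum amyloid A that is made largely outside the liver. Its signal was 1100 on doxycycline array 1 and 15.8 on doxycycline array 2, against 2.46 and 4.69 on the control arrays, where it was not well above background. This gene was thus bright on doxycycline array 1 and close to background on doxycycline array 2, which lay 53.9-fold lower. Since both control arrays give no more than an upper limit, the group mean was at least 8.67-fold higher with doxycycline. That mean is not typical of either array: doxycycline array 1 was at least 63.6-fold above the control limit and doxycycline array 2 at least 1.18-fold above it. The group means were -0.73 ± 4.07 with doxycycline and -5.35 ± 0.23 in control (SD, n = 2 each), and their difference of 4.62 was 1.56 with normexp background correction.

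Ptx3 encodes the long pentraxin 3, which binds microbes and is released by endothelial cells and macrophages in inflammation. It was well above background on doxycycline array 1 alone, with a signal of 74.4, against 3.32 on doxycycline array 2 and 2.35 and 2.78 on the control arrays. Doxycycline array 2 and both control arrays were not well above background. Doxycycline array 1 by itself was at least 4.30-fold above the control limit.

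Orm1 encodes α-1-acid glycoprotein, a carrier protein of plasma made by liver. Its signal was 2.72 and 2.74 on the doxycycline arrays and 2.04 and 5.02 on the control arrays, never well above background. No direction can be read for it. Orm2 was likewise never well above background, whereas Orm3 was tested and read -4.04 and -3.59 with doxycycline, against -5.92 and -4.90 in control, where it was not well above background.

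**Figure D1:**
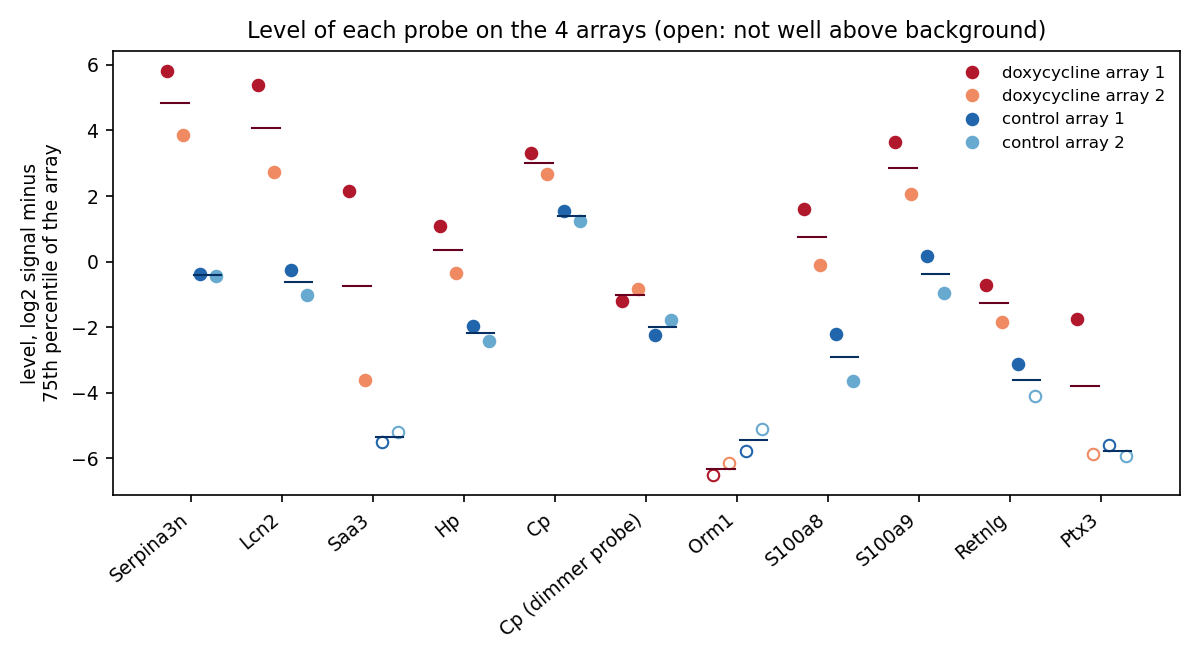
Level of each of the 11 probes (log2, relative to the array's 75th percentile) on doxycycline arrays 1 and 2 and control arrays 1 and 2; bars are group means and open circles are spots not well above background. Serpina3n, Lcn2, Hp, S100a8, S100a9, Retnlg and both Cp probes had both doxycycline arrays above both control arrays, whereas Saa3 and Ptx3 stood out on doxycycline array 1 and Orm1 was never well above background.

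For the 8 genes tested, both doxycycline arrays lay above both control arrays in 8 of 8, where 14.5% of all genes tested did so and 20.8% lay below in the same sense. Nothing is read from that count, because the genes were chosen on this contrast. Differences between groups ran between 1.60 for Cp and 5.25 for Serpina3n. Doxycycline array 1 was above doxycycline array 2 in 8 of 8, where 49.7% of all genes were. The gap ran between 0.64 for Cp and 5.75 for Saa3, and 2 genes, Lcn2 and Saa3, were at least 4-fold brighter on doxycycline array 1, as were 0.853% of all genes. Control array 1 was above control array 2 in 7 of 8, Saa3 being the exception at background, and in 5847 of all 12538 genes tested. The scanner software's own error of a spot was 10.0% to 21.6% of the signal wherever these probes were well above background.

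The values of each doxycycline array by itself are a description as well, because the genes were chosen on these contrasts. For the 7 genes with a control array well above background, doxycycline array 2 by itself was between 1.28 (Cp) and 4.27 (Serpina3n) above the control mean. Doxycycline array 1 was between 1.92 (Cp) and 6.22 (Serpina3n) above it. Saa3 has a lower bound in its place, given above.

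**Figure D2:**
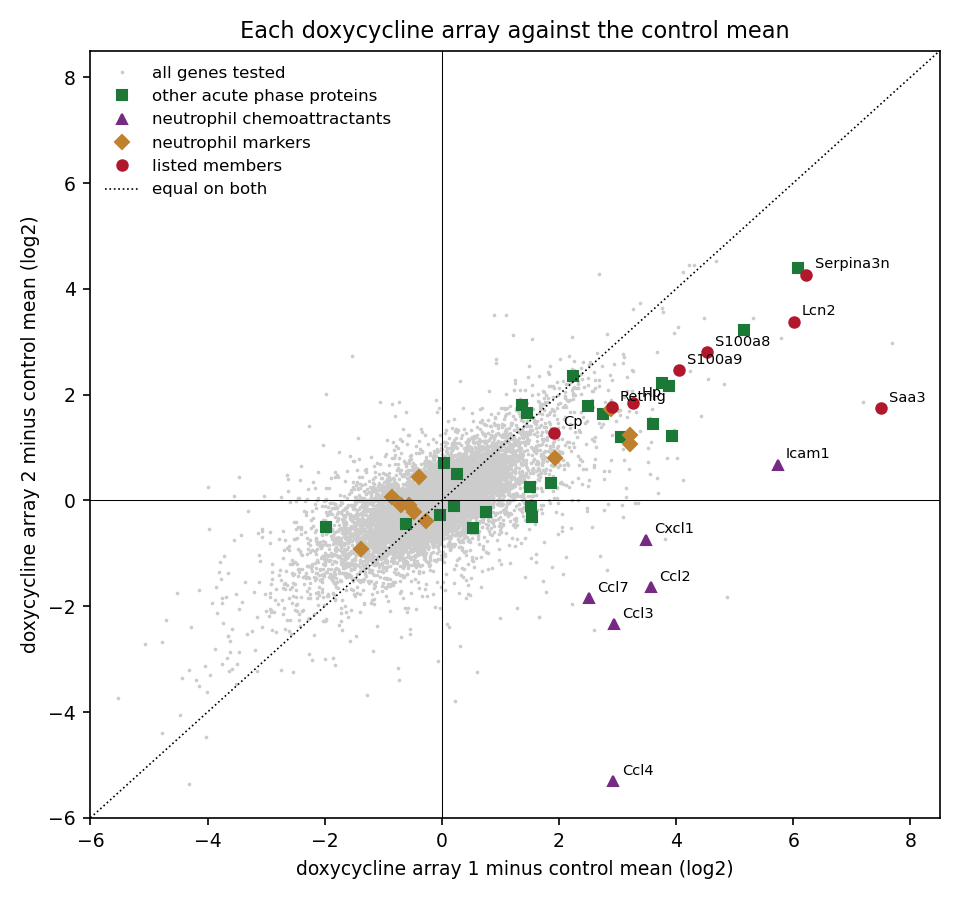
Doxycycline array 1 (horizontal) and doxycycline array 2 (vertical), each minus the mean of the 2 control arrays (log2), for the members, 3 related lists and all 12538 genes tested; the dotted line marks equal values. Serpina3n, Lcn2, S100a8 and S100a9 lie high on both axes, Saa3, whose control arrays were not well above background, lies far right of the line at 7.50 and 1.74, and the neutrophil chemoattractants lie above control on doxycycline array 1 and below it on doxycycline array 2 apart from Icam1.

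Other acute phase genes were described from a list of 38, chosen with earlier results of these data known. Of these, 35 were on the array, 24 were tested, and 0 passed in either direction. At an unadjusted p under 0.05, 11 lay higher and 0 lower, where 3.17% of all genes tested lay higher and 3.89% lower. The list's median difference was 1.32, beside -0.06 over all genes. Mt2, a metal-binding metallothionein, had the largest difference at 5.24 ± 0.63 (SE, limma adjusted p = 0.149), with levels of 9.07 and 7.38 on the doxycycline arrays and 2.69 and 3.29 on the control arrays. Mt1 differed by 2.30 ± 0.48 (SE, limma adjusted p = 0.318), and it was as high on doxycycline array 2 (8.97) as on doxycycline array 1 (8.85).

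The paralogs next to the members did not all move with them. Of the serpin cluster around Serpina3n, Serpina3i read 2.34 and 0.40 with doxycycline and -1.55 and -4.08 in control, a difference of 4.18 ± 0.95 (SE, limma adjusted p = 0.335). Control array 2 was not well above background for Serpina3i. Serpina3c was not well above background on the control arrays and was at least 2.00-fold higher with doxycycline (limma adjusted p = 0.299). Serpina3f differed by 0.01 ± 1.58 (SE, limma adjusted p = 0.9998), and its control arrays read 1.07 and -4.43, the latter not well above background. Probes of such similar genes may share signal, which was not tested. Of the amyloid genes beside Saa3, Saa1 read 0.86 and -0.99 with doxycycline and -0.09 and -1.26 in control, a difference of 0.61 ± 0.71 (SE, limma adjusted p = 0.948). Saa2 was well above background on doxycycline array 1 alone, at a signal of 64.8, and Saa4 on no array. Of the S100 family, 9 of 14 other listed genes were tested and 1 of these, S100a1, was above control on average, at 0.11 ± 0.50 (SE, limma adjusted p = 0.989). Over all genes tested, 5663 of 12538 were above control on average. S100a4 differed by -1.38 ± 0.63 (SE, limma adjusted p = 0.763) and S100a6 by -0.53 ± 0.62 (SE, limma adjusted p = 0.946). Retnla, a resistin-like gene of macrophages and fat tissue beside Retnlg, went the other way at -2.12 ± 0.51 (SE, limma adjusted p = 0.350), with -1.28 and -1.57 on the doxycycline arrays and 1.28 and 0.12 on the control arrays.

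Further acute phase genes with small p values were Lrg1, a leucine-rich glycoprotein of plasma, at 2.99 ± 0.68 (SE, limma adjusted p = 0.335), and Itih4, an inter-α-inhibitor heavy chain, at 2.19 ± 0.56 (SE, limma adjusted p = 0.385). Lrg1 read 6.27 and 4.73 on the doxycycline arrays and 1.84 and 3.18 on the control arrays. The complement genes C3 and Cfb differed by 0.38 ± 0.50 and 0.71 ± 0.74 (SE, limma adjusted p = 0.960 and 0.936). The liver-restricted Apcs, Fga, Fgb and Hpx were never well above background. Fgg, the gene of another fibrinogen chain, and Crp, that of C-reactive protein, were so on control array 2 alone. Their signals there were 103 and 19.6, and 1.36% of all named genes were well above background on that array alone. The list's median was 0.47 without control array 2.

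Il6, Tnf and Il1b, which encode cytokines known to drive this response, were highest on doxycycline array 1. Among other listed cytokine genes, Il1a was well above background on doxycycline array 1 alone and Lif on control array 2 alone. Ctf1 and Clcf1 were tested and were not highest on doxycycline array 1. Il6 had a signal of 1659 on doxycycline array 1 and 9.55 on doxycycline array 2, against 1.96 and 2.26 on the control arrays, and was well above background on doxycycline array 1 alone. Tnf, which encodes tumour necrosis factor, read 0.97 and -5.71 on the doxycycline arrays and -2.94 and -4.83 on the control arrays. Tnf was not well above background on doxycycline array 2 and control array 2. Il1b, which encodes interleukin-1β, read 0.37 and -3.76 with doxycycline and -0.93 and -3.95 in control, where control array 2 was not well above background. For Tnf and Il1b, doxycycline array 2 lay below or inside the control range, and their differences of 1.52 ± 1.94 and 0.74 ± 1.45 (SE, limma adjusted p = 0.955 and 0.975) were smaller than their errors.

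The transcription factors and signal carriers downstream of these cytokines were higher on both doxycycline arrays in several cases. Cebpd, which encodes C/EBPδ, read 6.24 and 5.53 with doxycycline and 4.42 and 3.32 in control, a difference of 2.02 ± 0.53 (SE, limma adjusted p = 0.397). Cebpb, which encodes C/EBPβ, differed by 1.42 ± 0.54 (SE, limma adjusted p = 0.660) and Stat3 by 1.16 ± 0.47 (SE, limma adjusted p = 0.684). For these 3 genes the groups did not overlap. Nfkb1 and Rela, which encode NF-κB subunits, differed by 0.09 ± 0.44 and 0.25 ± 0.52 (SE, limma adjusted p = 0.989 and 0.976). The kinase genes Jak1, Jak2 and Tyk2 differed by -0.02, -0.23 and -0.37. For the NF-κB inhibitor genes Nfkbia and Tnfaip3, doxycycline array 2 lay inside the control range. Over the whole upstream list, both doxycycline arrays lay above both control arrays in 7 of 27 genes tested and below in 2, where 14.5% and 20.8% of all genes did so. Socs3, the feedback inhibitor induced by STAT3, read 6.98 and 4.38 with doxycycline and 4.62 and 2.95 in control, so that the groups overlapped. The interleukin-6 receptor chain Il6st differed by 0.31 ± 0.39 (SE, limma adjusted p = 0.955) and Il6ra by 1.31 ± 0.56 (SE, limma adjusted p = 0.723). Of 36 genes in this upstream list, 27 were tested and 0 passed. At an unadjusted p under 0.05, 3 lay higher and 0 lower, where 3.17% and 3.89% of all genes tested did so. The median difference was 0.54, or -0.02 without control array 2.

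Among the glucocorticoid receptor and its targets, 13 of 13 genes were tested and 0 passed, with 4 higher and 1 lower at an unadjusted p under 0.05. Over all genes tested the shares were 3.17% and 3.89%. Fkbp5, a chaperone of the receptor, read 3.49 and 3.15 on the doxycycline arrays and 0.53 and 0.25 on the control arrays, a difference of 2.93 ± 0.41 (SE, limma adjusted p = 0.166). The transcription factor gene Zbtb16 differed by 2.35 ± 0.41 (SE, limma adjusted p = 0.247) and the cell cycle inhibitor gene Cdkn1a by 3.65 ± 0.54 (SE, limma adjusted p = 0.166). On doxycycline arrays 1 and 2, Zbtb16 read 3.67 and 3.92 and Cdkn1a 4.39 and 3.64, closer together than the listed genes other than Cp. Nr3c1, the receptor itself, differed by -1.19 ± 0.45 (SE, limma adjusted p = 0.654). Tsc22d3 and Per1, other known targets, differed by 0.37 ± 0.48 and 0.11 ± 0.44 (SE, limma adjusted p = 0.956 and 0.987).

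In the list of genes that recruit neutrophils and monocytes, those well above background on any array were brightest on doxycycline array 1. The chemokine gene Ppbp, listed with the platelet markers instead, was well above background on control array 1 alone. Of the 15 genes in the chemoattractant list, 6 were tested, 0 passed in either direction, and 0 had an unadjusted p under 0.05. Another 5 were not well above background on any array. Doxycycline array 1 was above doxycycline array 2 in 6 of the 6 tested, where 49.7% of all genes were. The median gap was 5.13, beside -0.0028 over all genes. Ccl2, a chemokine for monocytes, read 4.31 and -0.90 with doxycycline and 1.40 and 0.07 in control. Cxcl1, a neutrophil chemokine, read 3.42 and -0.80 with doxycycline and 0.82 and -0.94 in control. Icam1, an adhesion molecule of endothelium, read 3.37 and -1.69 with doxycycline and -1.38 and -3.35 in control. In all 3 of these genes doxycycline array 2 lay within or below the control range. A further 4 of the 15, Cxcl2, Cxcl5, Sele and Selp, were well above background on doxycycline array 1 alone, as were 1.34% of all named genes, with signals there of 438, 369, 306 and 285. The list's median difference of 0.65 became -1.74 without doxycycline array 1. Saa3 and Ptx3 shared with these genes the position of being bright on doxycycline array 1 and dim or below background on doxycycline array 2.

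**Figure D3:**
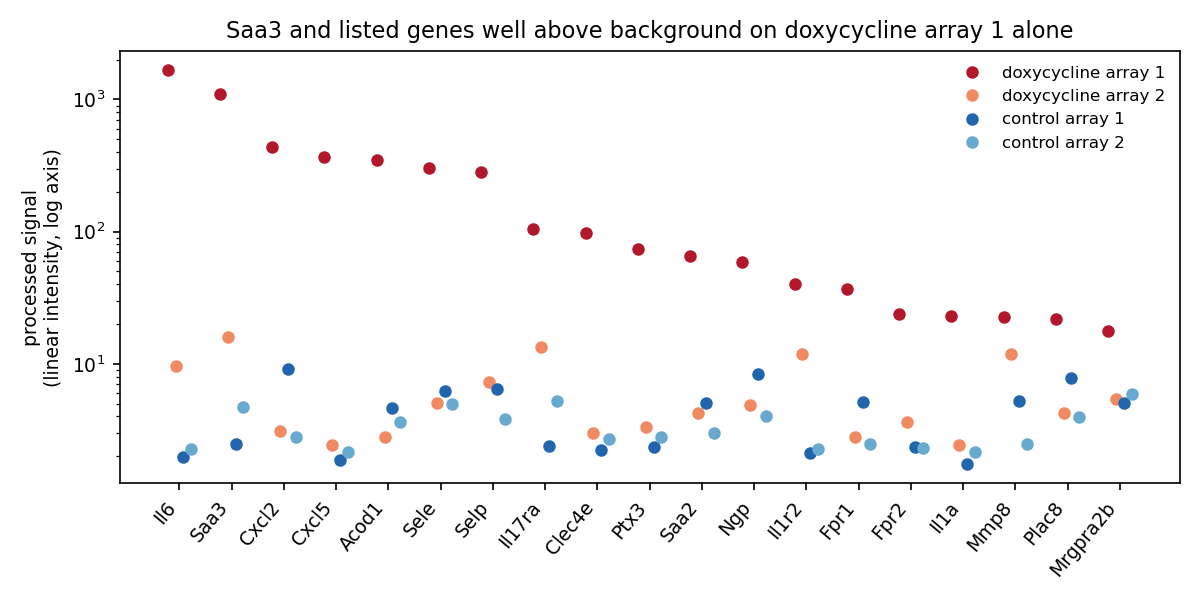
Processed signal (linear intensity on a log axis) on the 4 arrays for Saa3 and for the 18 listed genes well above background on doxycycline array 1 alone, Ptx3 among them, ordered by that array. Il6 at 1659 and Saa3 at 1100 were brightest, and on doxycycline array 2 and the control arrays no gene shown had a signal above 15.8.

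Neutrophil markers, beside the alarmins, gave a mixed picture. Of 32 listed, 30 were on the array, 11 were tested, and 9 were not well above background anywhere. Among the tested markers 0 passed, and 3 lay higher and 0 lower at an unadjusted p under 0.05, beside 3.17% and 3.89% of all genes. Above control on average were 5 of 11, and 5663 of all 12538 genes tested. Mpo, the myeloperoxidase of neutrophil granules, and the chemokine receptor Cxcr2 were never well above background. Ngp, another granule protein, had a signal of 59.2 on doxycycline array 1 and 4.84 on doxycycline array 2, against 8.42 and 4.04 on the control arrays. In all, 7 of the 30, including Ngp, Il1r2, Fpr1 and Mmp8, were well above background on doxycycline array 1 alone, and 0 were so on doxycycline array 2 alone. Of all named genes, 1.34% and 0.57% were. Prtn3 was so on control array 1 alone, and Ltf and Stfa3 on control array 2 alone, beside 2.06% and 1.36% of all named genes. The granule genes Camp and Elane were not highest on doxycycline array 1, at differences of -0.34 ± 0.62 and -0.39 ± 0.54 (SE, limma adjusted p = 0.974 and 0.960).

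Some markers did lie higher. Chil3, a chitinase-like protein of myeloid cells, read 1.11 and -0.86 on the doxycycline arrays and -1.54 and -2.66 on the control arrays. Clec4d, a lectin receptor, read -0.30 and -2.44 with doxycycline and -2.64 and -4.39 in control, where control array 2 was not well above background. Wfdc21 was not well above background on the control arrays and was at least 1.497-fold higher with doxycycline (limma adjusted p = 0.331). The summed signal of the whole marker list, in units of the 75th percentile, was 74.7 and 109 on the doxycycline arrays, against 129 and 74.6 on the control arrays. That sum came mainly from Csf3r and from the brightest of 3 probes of Itgam, and the other Itgam probes read far lower. The groups overlapped in the sum. What part neutrophils in the preparation have in the levels of S100a8, S100a9 and Retnlg was not tested.

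Markers of other cell types gave a mixed order over the arrays. Of macrophage and monocyte markers, 1 of 10 tested was above control on average, beside 5663 of all 12538 genes tested. The median difference was -0.97, or -0.48 without control array 1. Cx3cr1, a chemokine receptor of macrophages, was not well above background on the doxycycline arrays and was at least 4.22-fold lower there than in control (limma adjusted p = 0.228). The summed signal was 6.41 and 7.32 on the doxycycline arrays and 22.7 and 8.56 on the control arrays. Fibroblast markers had a median difference of -2.18, or -1.33 without control array 1. Endothelial markers had a median difference of -0.18, which became 0.49 without control array 1 and 0.17 with scaling to the median. Fat cell markers Cfd and Lipe were higher, at 2.18 ± 0.41 and 1.57 ± 0.40 (SE, limma adjusted p = 0.284 and 0.379), whereas Adipoq, the hormone that defines fat cells, was never well above background. The hepatocyte gene Ttr was not well above background on the control arrays and was at least 2.95-fold higher with doxycycline (limma adjusted p = 0.268). The median gap between doxycycline arrays 1 and 2 was -0.42, -0.76, -0.25 and -0.13 for macrophage, fibroblast, endothelial and fat cell markers. For platelet markers it was 1.51, with doxycycline array 1 above doxycycline array 2 in 3 of 3 genes tested of 7 listed. That order held in 49.7% of all genes tested. Of the 3, Gp1bb was not well above background on doxycycline array 2 and control array 1. Another 3 of the 7, Ppbp, Gp9 and Treml1, were well above background on control array 1 alone, as were 2.06% of all named genes. Itgb3, an integrin of platelets, read 1.32 and -0.20 on the doxycycline arrays and -1.001 and -2.77 on the control arrays, the order of S100a8, a difference of 2.44 ± 0.75 (SE, limma adjusted p = 0.506). Pf4, a platelet chemokine, read 1.78 and 0.02 with doxycycline and 2.29 and 1.15 in control. The part of these cells in the members' levels was not tested.

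Receptors and partners of the members differed in both directions. Of 22 listed, 17 were tested and 0 passed, with a median difference of 0.01. At an unadjusted p under 0.05, 1 lay higher and 1 lower, where 3.17% and 3.89% of all genes tested did so. Tlr4, through which calprotectin signals, differed by 0.86 ± 0.48 (SE, limma adjusted p = 0.836), and its adaptor gene Myd88 by 1.42 ± 0.57 (SE, limma adjusted p = 0.684). Tfrc, the transferrin receptor, differed by -1.30 ± 0.50 (SE, limma adjusted p = 0.660). Slc22a17, a receptor of lipocalin 2, read -1.69 and -0.47 with doxycycline and 0.84 and -0.70 in control. Ager, another calprotectin receptor, and Cd163, which takes up haptoglobin bound to haemoglobin, were never well above background. The ferritin gene Fth1 and the iron exporter gene Slc40a1, whose iron ceruloplasmin oxidises, differed by 0.51 ± 0.44 and 0.68 ± 0.51 (SE, limma adjusted p = 0.909 and 0.896).

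The genes nearest to the members over the 4 arrays were found by the root mean square distance between a gene's levels, centred on their mean, and the mean centred levels of the 8 members tested. That mean profile was 2.80 and 0.70 on the doxycycline arrays and -1.45 and -2.05 on the control arrays. Myc, which is also 1 of the 4 factors of the transgene, was nearest, at a distance of 0.12. It read 1.77 and -0.49 on the doxycycline arrays and -2.34 and -3.21 on the control arrays. Whether the Myc probe also reads RNA of the transgene was not tested. Next were Slc10a6, a steroid sulfate transporter, at 0.17, and Inhbb, an activin subunit, at 0.19. Sbno2, Map3k6 and Krtap11-1 followed at 0.43, 0.44 and 0.46. For comparison, the members themselves lay between 0.29 and 1.44 from their mean. The distance covers 4 arrays, and with 12538 genes some lie near any profile.

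**Figure D4:**
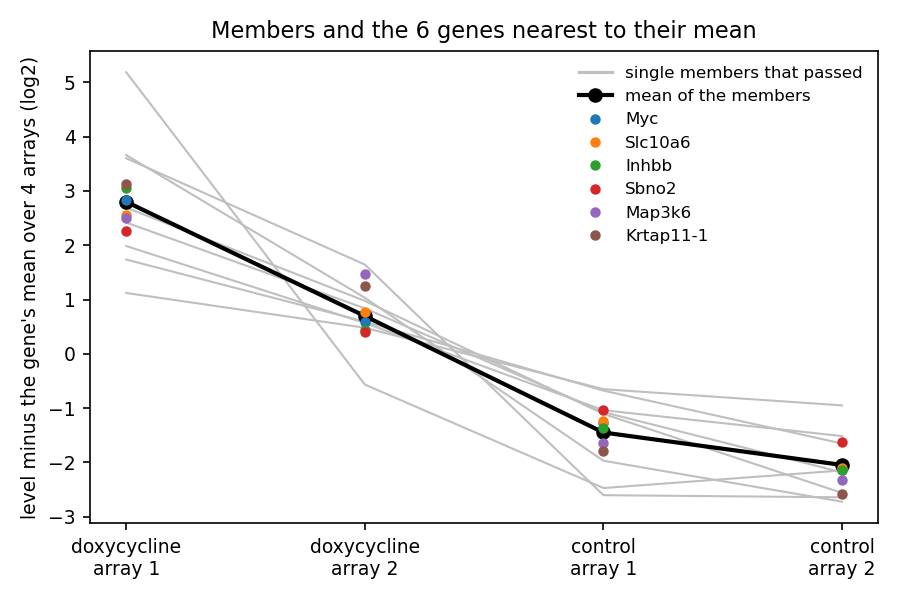
Levels centred on each gene's mean over the 4 arrays (log2), for the 8 members tested (grey lines), their mean (black) and the 6 nearest other genes (coloured points). The mean profile is 2.80 and 0.70 on the doxycycline arrays and -1.45 and -2.05 on the control arrays, and Myc lies within 0.12 of it.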

How the data were processed

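Per the file headers, the deposited processed intensity came out of Agilent Feature Extraction (version 10.7.1.1) run on Cy3 scans: it is background-subtracted and detrended within each array, on a linear scale, with no normalization between arrays. Other deposited columns used, per the file headers, were flags for spots well above background, saturated (0 spots) or outlying, the software's error of the signal, and the median intensity of spot and background. Per the file headers the design build is mm9. Array sequence depth does not apply, and the number of arrays limits the precision.

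Of 39429 probes, 27502 were named through RefSeq accessions with a gene table of assembly GRCm38.p6, used for names. Intensity was log2-transformed and the 75th percentile of non-control spots subtracted. Outlier spots were left out, spots of a probe were averaged, probes well above background on at least 2 arrays were kept, and the brightest probe stood for a gene. Limma 3.58.1 in R 4.3.3 (lmFit and eBayes, two-sided, Benjamini-Hochberg over 12538 genes, threshold 0.05) tested doxycycline against control. An exact permutation test of 2 against 2 arrays cannot go below p = 0.333. The steps were run on simulated data whose spread was equal for every gene and smaller than the average spread within groups here. That run does not show how well the test finds changes in these arrays. A lower bound of a fold sets the bright mean against a control limit, the mean over control arrays of the lowest level well above background there, or of the probe's own level if that is higher.

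The members and lists were chosen with earlier results of these data known. Named genes are the members, up to 4 genes of smallest p per list, genes singled out by role, and the 6 nearest profiles. Paralogs, further list genes and the comparisons of single arrays were chosen after values were seen. Columns of other samples numbered 0. Alternatives were normexp (offset 50, on median intensity, since a mean spot signal was not used here), quantile normalization, median scaling, 2 other filters, the mean of probes, leaving out each array, a replicate block, and robust or trended variances. Promoter motifs were searched in Python 3.11.15, and figures drawn with matplotlib 3.10.9.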

Additional observations from a re-analysis of the deposited data

How the results depend on the processing

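Of the members' differences, normexp background correction took Retnlg to 0.78, Saa3 to 1.56, Hp to 1.52 and S100a8 to 2.01. Since both doxycycline arrays lay above both control arrays in the 8 members tested, leaving out 1 array cannot turn their direction. The members' differences with an array left out ran between 1.28 and 1.92 for Cp, 1.74 and 7.50 for Saa3, 3.38 and 6.01 for Lcn2 and 4.27 and 6.22 for Serpina3n. The count of genes called over all genes, 0 higher and 0 lower, became 95 and 33 with scaling to the median, which shifted the median of all genes by 0.35. With the replicate number as a block it became 152 and 143. The labels do not say that a number marks shared animals, the deviations of same-numbered arrays correlated at -0.09 across genes, and in this balanced design a block cannot move a difference. Leaving out an array gave 0 to 87 genes higher and 0 to 84 lower, with calls when either doxycycline array was left out. Those fits take their spread from the control pair alone and assume that the lone doxycycline array varies alike. An unadjusted p under 0.05 gave 398 and 488. Of list medians, that of the neutrophil chemoattractants was -1.74 without doxycycline array 1, and that of the neutrophil markers, -0.33, was 0.41 without control array 1, 0.06 without doxycycline array 1, 0.19 with no filter on dim probes and 0.02 with scaling to the median. The median of the other acute phase genes stayed above 0 in every setting run, at 0.45 with normexp and 0.38 with no filter. That of receptors and partners was -0.09 with quantile normalization and -0.39 without control array 2. The cause of these shifts was not tested. Signal near background limits Saa3, Ptx3, Retnlg and Orm1.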

Other observations

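Some listed genes stood out on a control array. Ltf, the lactoferrin of neutrophil granules, had a signal of 145 on control array 2, against 3.84 and 2.70 on the doxycycline arrays and 2.15 on control array 1. Fgg, a fibrinogen chain of liver, had 103 on control array 2 and at most 2.64 on the other 3 arrays. The platelet chemokine gene Ppbp had 7.21 and 2.93 on the doxycycline arrays and 65.9 and 11.9 on the control arrays. Each is a probe of 1 spot.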
